A study of Ovis aries with 16 samples.

Results

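SMPDL3A (ENSOARG00000008143) encodes the acid sphingomyelinase-like phosphodiesterase 3A. It was 1 of 25197 genes counted in the testis RNA of 16 sheep, and 1 of 11148 genes with CPM, the reads on a gene scaled by the library total, above 5 in at least 8 libraries. The gene was selected on the difference in its CPM between the diets in these same libraries. That difference is therefore given as a description, with its standard error (SE) and without a test. Tests were kept for other genes and for variation among sheep of the same diet.

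All 16 animals were adult Merino males kept in individual pens, and 1 library was made from each. The 8 well-fed sheep received a high diet intended to raise body mass by 10% over 65 days, and the 8 underfed sheep received a low diet intended to lower it by 10%. Pieces from the top, middle and bottom of the right testis were ground together, so every library is an average over all testicular cells. A group fed for maintenance was not analysed here.

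SMPDL3A is a secreted and lysosomal enzyme related in sequence to acid sphingomyelinase (SMPD1). Unlike that enzyme it is known to act on nucleotides such as ATP and CDP-choline, and more recently on cGAMP, the messenger of the cGAS-STING pathway, rather than on sphingomyelin. Its closest relative, SMPDL3B, is anchored to the outer face of the plasma membrane. In human macrophages SMPDL3A is a target of the liver X receptors (LXR), nuclear receptors that sense oxidised cholesterol and switch on genes of cholesterol and fatty acid handling.

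The libraries of well-fed sheep held 9552149 to 18230076 reads and those of underfed sheep 7646547 to 14690953. Some libraries stood apart from their diet. Each library was placed on the line between the diet means over the 11147 other genes, where 0 is the high diet mean, 1 is the low diet mean and the library itself is left out of its own mean. High diet replicates 3, 4 and 7 lay at 0.80, 0.67 and 1.00, nearer to the low diet mean, and low diet replicate 1 lay at 0.02, nearer to the high diet mean. High diet replicate 8 lay beyond the other well-fed sheep at -1.17, and low diet replicate 6 lay beyond the other underfed sheep at 1.89. Whether any of these libraries carries a wrong label was not tested. Marker genes of spermatocytes, round spermatids and Sertoli cells were above 0 reads in all 16 libraries, which accords with testis as the source.

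SMPDL3A was a gene of low level that was lower in every underfed sheep than in every well-fed sheep. In the high diet group its lowest level was 6.14 CPM, its median 8.03 CPM and its highest 9.56 CPM. In the low diet group the lowest level was 2.26 CPM, the median 3.50 CPM and the highest 5.07 CPM. The diets did not overlap, and the gap lay between high diet replicate 4 and low diet replicate 4. The means were 8.03 ± 1.26 CPM (SD, n = 8) in well-fed sheep and 3.57 ± 0.961 CPM (SD, n = 8) in underfed sheep, so that the mean of the high diet was 2.25 times that of the low diet.

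**Figure D1:**
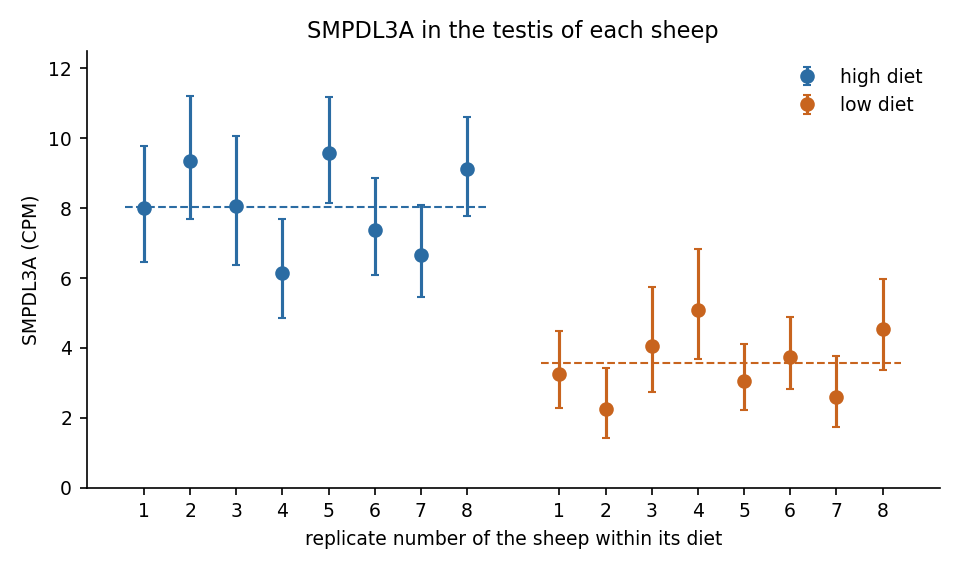
SMPDL3A level (CPM) in each of the 8 high diet and 8 low diet sheep, by replicate number. Points are single libraries, bars are exact Poisson 95% intervals of the reads and dashed lines are diet means, and the lowest well-fed sheep (6.14 CPM) lies above the highest underfed sheep (5.07 CPM).

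After division by the scaling factors of edgeR's TMM method and addition of 1 CPM, the level in the low diet minus that in the high diet was -1.14 on the log2 scale (SE 0.19). On this scale the 8 well-fed sheep lay between 2.83 and 3.74 and the 8 underfed sheep between 1.60 and 2.47, again without overlap. A larger decrease was found for 133 genes, or 1.19% of those tested, and the median difference of all genes was 0.01. Scaled by library totals alone, the difference of SMPDL3A was -0.998 and the median of all genes 0.17. Because SMPDL3A was above 5 CPM in 8 well-fed sheep but in only 1 underfed sheep, it passed the filter on low values through the group in which it was high. Non-overlap of this kind was uncommon among the genes tested. In 4 genes, or 0.0359% of 11148, the CPM of every underfed sheep was below that of every well-fed sheep, whereas in 85 genes (0.762%) it was above. With CPM divided by TMM factors, these counts were 9 genes (0.0807%) and 52 genes (0.466%). SMPDL3A was among those with lower levels on either scale, as follows from how it was chosen.

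The reads behind these levels were few. Well-fed sheep had 77 to 166 reads on SMPDL3A (median 109) and underfed sheep 22 to 55 (median 40). By counting error alone, the exact Poisson 95% interval of the lowest well-fed sheep (4.85 to 7.67 CPM) overlapped that of the highest underfed sheep (3.67 to 6.83 CPM). The SD of the log2 level among sheep was 0.31 in the high diet and 0.30 in the low diet, against 0.13 and 0.18 expected from counting. On this TMM-scaled log2 level, counting thus accounted for 16.2% of the variance among well-fed sheep and 36.9% among underfed sheep. Scaled by library totals alone, the diets were more alike. There the variance of the reads was 2.84 times that of counting in the high diet and 2.56 times in the low diet (chi-square per degree of freedom). Neighbouring sheep in the ranking within a diet, such as high diet replicates 1 (7.99 CPM) and 3 (8.06 CPM), differed by less than their counting intervals. With every library thinned to the size of the smallest, the difference between the diets was -1.23.

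SMPDL3A was selected on the labelled diets, so its levels in the 4 libraries whose overall profile lay nearer to the other diet are a description and bear neither on their labels nor on their profiles. High diet replicates 3, 4 and 7 had 8.06, 6.14 and 6.67 CPM, all above the underfed sheep, and replicates 4 and 7 were the lowest of their diet. Low diet replicate 1 had 3.25 CPM, near the middle of its diet. Leaving out any of these 4 libraries gave differences from -1.20 to -1.15. The libraries at the ends of the profile were not alike in this gene, since high diet replicate 8 had 9.11 CPM, the third highest of all, whereas low diet replicate 6 had 3.74 CPM and was not the lowest.

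**Figure D2:**
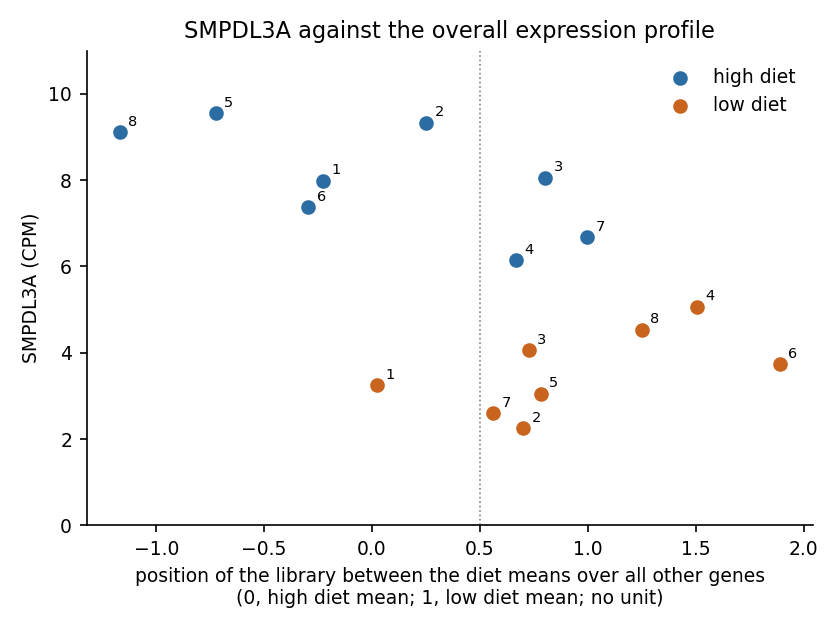
SMPDL3A level (CPM) against the position of each library between the diet means over 11147 other genes (0, high diet mean; 1, low diet mean; no unit), with replicate numbers beside the points. High diet replicates 3, 4 and 7 and low diet replicate 1 lie across the dotted midline of the profile. The separation of the diets on the vertical axis is the one on which SMPDL3A was selected.

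SMPDL3B (ENSOARG00000003224), the paralogue of SMPDL3A, had the opposite direction. Its lowest, median and highest levels were 0.713, 3.40 and 5.16 CPM in well-fed sheep and 4.48, 8.06 and 11.98 CPM in underfed sheep. Of the 8 underfed sheep, 7 were above every well-fed sheep, and low diet replicate 1 was the exception. The means were 3.25 ± 1.33 CPM and 8.12 ± 2.23 CPM (SD, n = 8 each), and the difference was 1.02 on the log2 scale (SE 0.22, limma with Benjamini-Hochberg adjustment over all genes, adjusted p = 0.020). SMPDL3B passed the filter through the low diet, with 7 underfed sheep and 1 well-fed sheep above 5 CPM, and it fell below the filter when any of these 8 sheep was left out. In the other 8 such fits, and with the filter lowered to 1 CPM, it was still called.

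Within a library the reads of the paralogues can be set against each other without any scaling between libraries. The log2 ratio of SMPDL3A reads to SMPDL3B reads was 0.56 to 3.62 in well-fed sheep (median 1.18) and -1.84 to -0.46 in underfed sheep (median -1.17). SMPDL3A therefore had more reads than SMPDL3B in all 8 well-fed sheep and fewer in all 8 underfed sheep. SMPDL3A was selected on its diet difference, and SMPDL3B passed the filter through the low diet. The split of the ratio by diet is therefore a description and no independent support for either difference. It compares only how the ratio differed between sheep, since gene lengths were not used and the levels of the paralogues themselves cannot be compared. Among sheep of the same diet the paralogues showed no common pattern, with Pearson's r of -0.68 in the high diet and 0.09 in the low diet (n = 8 each, description only). High diet replicate 8 had both the highest log2 level of SMPDL3A (3.74) and the lowest SMPDL3B (0.713 CPM) of its diet. How far the -0.68 rests on this sheep was not tested.

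**Figure D3:**
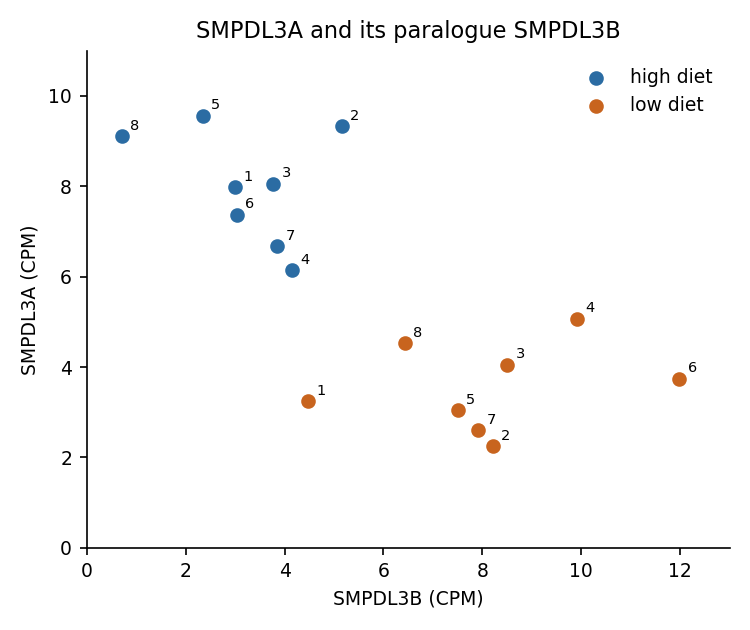
SMPDL3A against SMPDL3B (both CPM) in each sheep, with replicate numbers beside the points. Well-fed sheep lie at the upper left and underfed sheep at the lower right. Low diet replicate 1 is the single underfed sheep whose SMPDL3B (4.48 CPM) lies within the range of the high diet. The separation on the vertical axis is the one on which SMPDL3A was selected.

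The pathways around SMPDL3A were described from 4 lists of genes. Identifiers were paired with symbols for 1763 of the tested genes only, from tables in which most entries are genes that the study itself had called different in these libraries. The rule used here (adjusted p under 0.1 and a ratio of mean CPM above 1.5 in the same direction) called 16.2% of all genes tested, 10.8% higher and 5.42% lower in the low diet, but 76.7% of the genes with a symbol. The counts below are therefore not independent evidence of a direction. Of the 22 listed genes with an identifier besides SMPDL3A, 21 were called, of which 19 were higher and 2 lower in underfed sheep. SMPD1 had no identifier and was not analysed here.

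Among 11 of 53 listed enzymes and cofactors of sphingolipid metabolism, 8 were called higher and 2 lower in underfed sheep, with a median difference of 0.70 against 0.01 over all genes. ACER3, a ceramidase that releases sphingosine from ceramide, was lower in underfed sheep. Its levels were 42.2, 87.2 and 118 CPM (lowest, median, highest) in well-fed sheep and 19.3, 36.6 and 75.9 CPM in underfed sheep, and 5 underfed sheep lay below every well-fed sheep (log2 difference -1.18, SE 0.30, adjusted p = 0.031). CERS3, the ceramide synthase of very long acyl chains known from testis and skin, also fell (log2 difference -0.79, SE 0.22, adjusted p = 0.041), and 7 underfed sheep lay below every well-fed sheep. Low diet replicate 1 was the exception in CERS3, at 226.6 CPM. SAMD8, a sphingomyelin synthase-related protein of the endoplasmic reticulum, had a difference of -0.76 (SE 0.21, adjusted p = 0.040) and a ratio just short of the rule, and was not called.

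CERS2, the more widely expressed ceramide synthase, rose in underfed sheep by 1.20 on the log2 scale (SE 0.27, adjusted p = 0.020). Its levels were 4.77, 15.4 and 25.6 CPM in the high diet and 14.6, 43.0 and 56.7 CPM in the low diet. The diets overlapped only through low diet replicate 1, the lowest underfed sheep. PSAP, the precursor of the saposins that help lysosomal enzymes to reach their sphingolipids, rose by 1.04 (SE 0.30, adjusted p = 0.044). ST3GAL5, which makes the ganglioside GM3, rose by 0.90 (SE 0.21, adjusted p = 0.023). Each p above was adjusted over all genes tested with the Benjamini-Hochberg method after limma.

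Of 27 listed genes for extracellular nucleotides and cGAMP, SMPDL3B and NT5E had an identifier, and both were called higher in underfed sheep. NT5E (CD73), which turns extracellular AMP into adenosine, had levels of 58.3, 76.5 and 100.5 CPM in the high diet and 102.1, 140.0 and 173.5 CPM in the low diet. The log2 difference was 0.61 (SE 0.14, limma with Benjamini-Hochberg adjustment, adjusted p = 0.023), opposite in direction to SMPDL3A. On CPM the diets did not overlap in NT5E, but the gap was narrow (100.5 against 102.1 CPM). Of all genes tested, 0.762% were separated in this direction on CPM and 0.466% with CPM divided by TMM factors. Whether NT5E was separated on the latter scale was not examined.

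Of 18 listed LXR partners and targets, 6 had an identifier and all 6 were called higher in underfed sheep, opposite to SMPDL3A. The count was 3 without high diet replicate 5. SREBF1, the regulator of fatty acid synthesis, rose by 1.49 on the log2 scale (SE 0.43, adjusted p = 0.044), and PLTP, which moves phospholipids between lipoproteins, by 1.00 (SE 0.26, adjusted p = 0.032). ABCA1, the pump that exports cholesterol from cells, had levels of 64.8, 126.3 and 214.3 CPM in the high diet and 166.6, 259.5 and 577.0 CPM in the low diet, and 6 underfed sheep lay above every well-fed sheep (log2 difference 0.91, SE 0.26, adjusted p = 0.041). RXRB, a partner receptor of LXR, rose by 0.69, APOE, a lipoprotein component, by 0.96 and FASN, the fatty acid synthase, by 1.22 (SE 0.21, 0.35 and 0.45, adjusted p = 0.047, 0.082 and 0.082). These p-values are from limma with Benjamini-Hochberg adjustment.

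Of 32 listed lysosomal proteins, 4 had an identifier and were all called higher in underfed sheep. They were the protease CTSD (log2 difference 0.78, SE 0.28), the peptidase TPP1 (1.48, SE 0.28), the fucosidase FUCA2 (1.02, SE 0.29) and IGF2R, the receptor that carries enzymes marked with mannose 6-phosphate to lysosomes (1.58, SE 0.45). The adjusted p-values from limma with Benjamini-Hochberg adjustment were 0.075, 0.018, 0.043 and 0.042. TPP1 passed the filter through the low diet, with 7 underfed sheep and 1 well-fed sheep above 5 CPM, and was still called with the filter lowered to 1 CPM. SMPDL3A, itself partly lysosomal, had the opposite direction to each of them.

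The single calls were of unequal stability. When each sheep was left out in turn, ACER3, CERS2, PSAP, ST3GAL5, NT5E, ABCA1, SREBF1, PLTP, FUCA2 and IGF2R were called in all 16 fits, with adjusted p up to 0.098 for PSAP and SREBF1. RXRB lost its call without high diet replicate 5 (adjusted p = 0.10). CERS3 lost it without high diet replicates 6 or 8 or low diet replicates 4, 6 or 8, where its ratio of means fell short although its adjusted p did not pass 0.092. APOE, FASN and CTSD were called in 7, 8 and 6 of 16 fits, with adjusted p up to 0.17, 0.17 and 0.15. TPP1, like SMPDL3B, lost its call in 8 fits only by falling below the filter. With testis weight as a covariate, none of the 22 genes and none of the 11148 genes was called by limma. Of the latter, 544 had an unadjusted p under 0.05, about the share that chance alone gives at that threshold. Most underfed sheep had lighter testes than every well-fed sheep, so the covariate and the diet share variation. For SMPDL3A the SE was 0.19 without the covariate and 0.23 with it. The loss of calls therefore does not show that no difference between the diets remained. The differences changed unequally in size in that fit. Those of ABCA1 (0.91 to 0.83), FASN (1.22 to 1.04) and IGF2R (1.58 to 1.34) changed little. Larger changes were those of APOE (0.96 to 0.23), CTSD (0.78 to 0.29), PSAP (1.04 to 0.47), CERS2 (1.20 to 0.65), FUCA2 (1.02 to 0.58) and TPP1 (1.48 to 0.89).

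**Figure D4:**
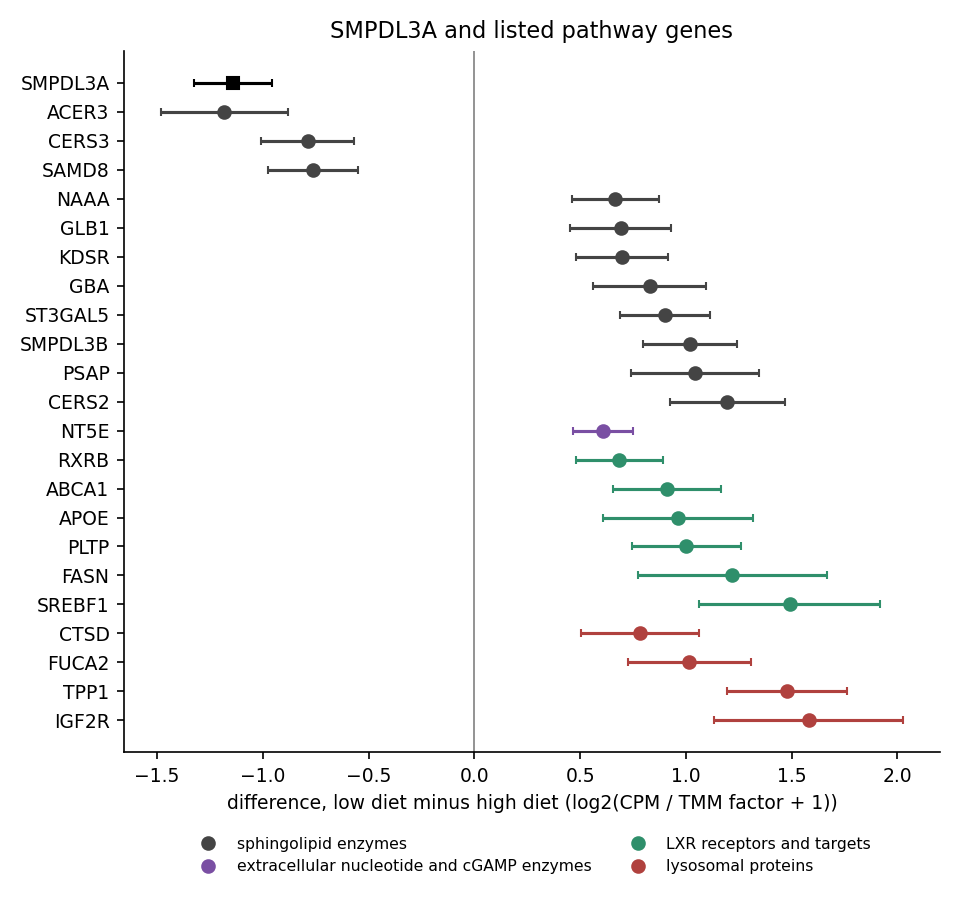
Difference between diets (low diet minus high diet, log2(CPM / TMM factor + 1)) of SMPDL3A and the 22 listed genes with an identifier, with bars of 1 SE and colours for the lists. SMPDL3A (-1.14), ACER3 (-1.18), CERS3 (-0.79) and SAMD8 (-0.76) lie left of 0, and all other listed genes lie right of it.

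The traits recorded by the study were set against the log2 level of SMPDL3A. They were matched to libraries by diet and replicate number, taken to name the same sheep, and this match was not checked further. The fits with testis weight as a covariate rest on the same match. The mean of each diet was first subtracted from both level and trait, so that the diet difference that chose the gene played no part. Relations with 6 traits were examined over all 16 sheep and again within each diet, and p-values were adjusted over these 18 relations with the Benjamini-Hochberg method. Of the relations over 16 sheep, that with testis weight had the largest r. Pearson's r was 0.62 (permutation test within diets, two-sided, p = 0.011, adjusted p = 0.098, n = 16) and Spearman's rho was 0.63 (permutation p = 0.015, adjusted p = 0.25). It was again 0.62 when the 2 sheep most distant from the median weight were left out. Within the diets r was 0.74 in well-fed sheep (exact permutation p = 0.035, adjusted p = 0.14, n = 8) and 0.58 in underfed sheep (exact permutation p = 0.13, adjusted p = 0.28, n = 8). The relation had the same sign within each diet but did not pass an adjusted p of 0.05. Scaled by library totals alone, it was weaker, with r = 0.51 (permutation p = 0.068, adjusted p = 0.21, n = 16).

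Testis weight overlapped between the diets. The testes of low diet replicate 8 were heavier than those of 6 of 8 well-fed sheep, and those of low diet replicate 1 heavier than those of 1. SMPDL3A in these 2 underfed sheep was 4.53 and 3.25 CPM. Since SMPDL3A was selected on its diet difference and testis weight was not, how well each separates the diets cannot be compared. With testis weight as a covariate in the fit over all genes, the diet difference of SMPDL3A was -0.80 (SE 0.23), which left 70.2% of it. Over all genes tested, the median absolute difference with the covariate was 71.7% of the median without it. This is a ratio of medians and not the share left in a single gene.

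The volume of the seminiferous epithelium, the layer of Sertoli and germ cells that lines the tubules, gave r = 0.58 (permutation p = 0.021, adjusted p = 0.13, n = 16) and rho = 0.49 (permutation p = 0.070, adjusted p = 0.25). Within the diets r was 0.51 and 0.65, in that order high and low, and with the 2 most distant sheep left out it was 0.49 (permutation p = 0.092, n = 14). Tubule diameter gave r = 0.33 (permutation p = 0.23, adjusted p = 0.29) and rho = 0.31 (permutation p = 0.27, adjusted p = 0.40), and 0.22 when the 2 most distant sheep were left out. Without low diet replicate 2 it was 0.18. The change in scrotal circumference gave r = -0.38 (permutation p = 0.16, adjusted p = 0.29) and rho = -0.37 (permutation p = 0.18, adjusted p = 0.40), and -0.34 when the 2 most distant sheep were left out. It was -0.60 without high diet replicate 8 and -0.18 without low diet replicate 2. In underfed sheep alone this relation was the farthest from 0 of the 18, with r = -0.81 (exact permutation p = 0.0088, adjusted p = 0.098, n = 8) and rho = -0.69 (exact permutation p = 0.069). In well-fed sheep r was -0.08, and the difference between the diets was not tested.

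Sperm number and germ cell apoptosis gave no stable relation with SMPDL3A. For sperm number per testis r was -0.21 (permutation p = 0.47, adjusted p = 0.53) but rho was 0.17 (permutation p = 0.56, adjusted p = 0.67). For apoptotic germ cells per tubule r was -0.36 (permutation p = 0.19, adjusted p = 0.29) but rho was 0.18 (permutation p = 0.53, adjusted p = 0.67). Both negative values rested on low diet replicate 2, the underfed sheep with the lowest SMPDL3A, which had the highest value of its diet for both traits. Without it r was 0.38 and 0.14, and with the 2 most distant sheep left out it was 0.40 and 0.36. For apoptotic germ cells r was 0.73 in well-fed sheep (exact permutation p = 0.038, adjusted p = 0.14, n = 8) and -0.66 in underfed sheep (exact permutation p = 0.071, adjusted p = 0.19, n = 8), the latter 0.16 when the 2 most distant sheep were left out. The difference between the diets was not tested.

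**Figure D5:**
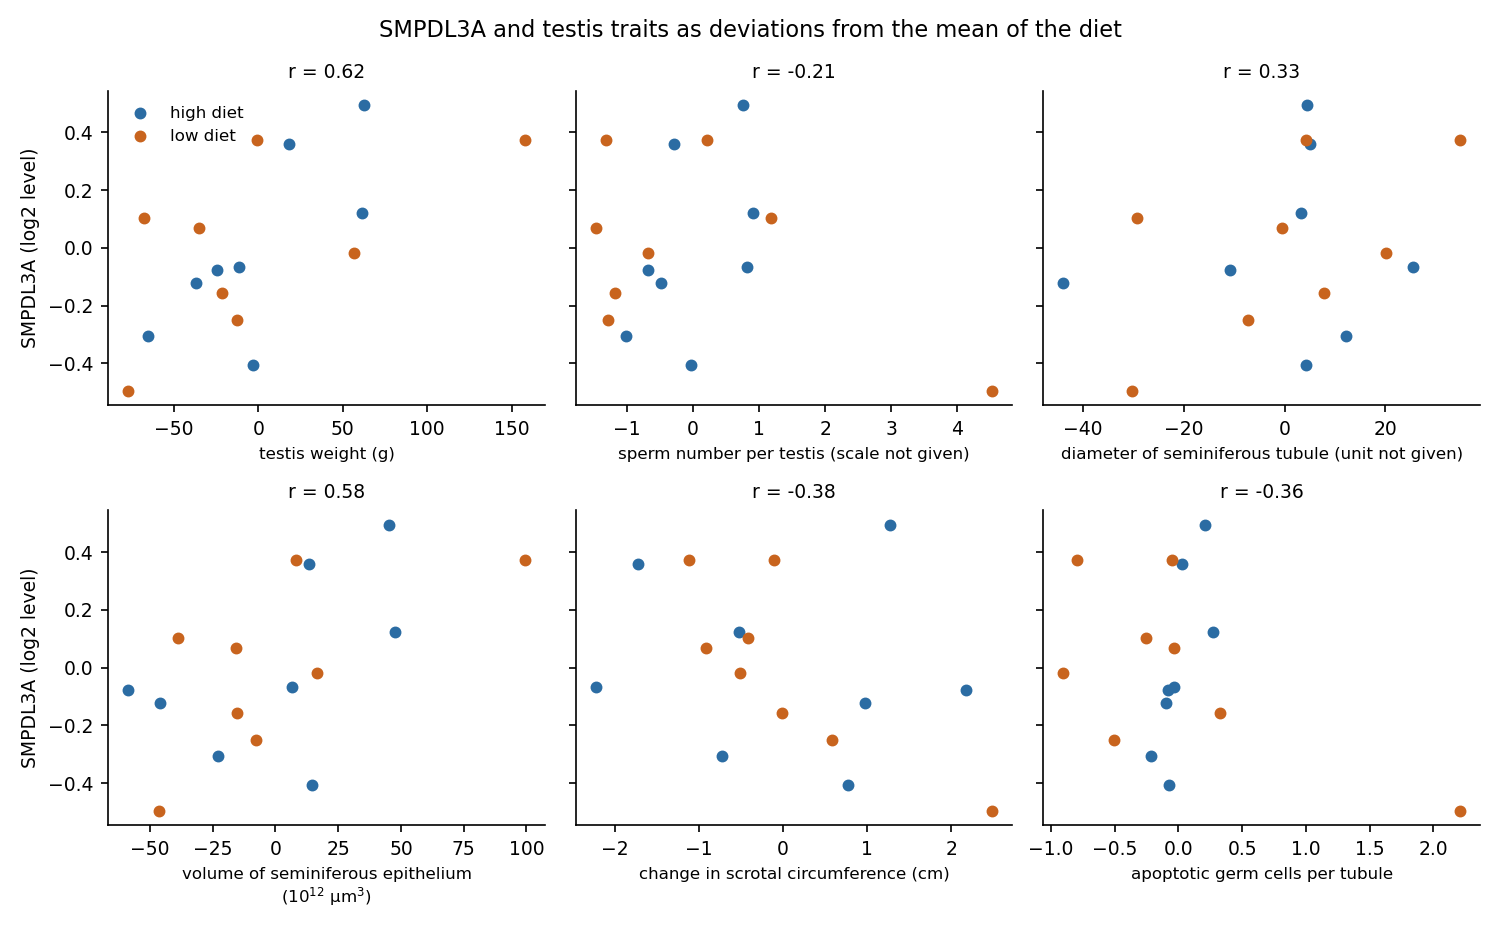
SMPDL3A (log2 level) against 6 traits, each as the deviation of a sheep from the mean of its diet, with Pearson's r over 16 sheep above each panel. The largest r are those of testis weight (0.62) and epithelium volume (0.58), and in the panels for sperm number and apoptotic germ cells a single underfed sheep lies far to the right.

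Cell type markers differed between the diets as well. In a bulk sample, fewer cells of a type and less RNA per cell cannot be told apart. The rule called 5.42% of all genes tested lower and 10.8% higher in underfed sheep, but 76.7% of the genes with a symbol. Counts of called markers are therefore not independent evidence of a direction. All 6 spermatocyte markers with an identifier, of 9 listed, were called lower in underfed sheep, and their summed level was 584.3 to 2206 CPM in the high diet and 178.2 to 1110 CPM in the low diet. Of 5 round spermatid markers (of 9 listed), 2 were called lower and 3 were not called. The log2 difference was negative in all 5, with a median of -0.77. Their summed levels were 645.5 to 1138 CPM in the high diet and 298.9 to 896.4 CPM in the low diet. All 7 Sertoli cell markers (of 10) were called higher in underfed sheep, with summed levels of 195.6 to 293.2 CPM in the high diet and 332.0 to 718.2 CPM in the low diet, which did not overlap. When each sheep was left out in turn, the spermatocyte markers SYCP1, SYCP2 and SYCP3 were called in 11, 8 and 9 of 16 fits. The round spermatid marker SPACA1 was called in 12 and the Sertoli cell marker CLDN11 in 13. Every other called marker, here and below, was called in all 16. With the replicate block, SYCP1, SYCP2, SYCP3 and CLDN11 were not called.

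All 3 markers of peritubular myoid cells (of 8) were called higher, with 95.9 to 347.1 CPM in the high diet and 242.3 to 754.4 CPM in the low diet. STAR, the cholesterol transporter that was the single Leydig cell marker of 8 with an identifier, was called lower (16.02 to 73.0 CPM against 6.71 to 27.8 CPM), and PTPRC, the single leukocyte marker of 8, was called higher (10.9 to 33.6 CPM against 19.3 to 59.4 CPM). None of these markers was at 0 in any library. No marker of spermatogonia, elongating spermatids or endothelial cells had an identifier. SMPDL3A was thus lower in underfed sheep like the spermatocyte markers, the round spermatid markers and STAR, and unlike the Sertoli, myoid and leukocyte markers. The part of cell composition in the difference of SMPDL3A was not tested.

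Among sheep of the same diet, no relation of SMPDL3A with the 4 lists of at least 3 markers passed an adjusted p of 0.05. With diet means removed, r was 0.26 for spermatocytes, 0.25 for round spermatids, -0.20 for Sertoli cells and -0.46 for peritubular myoid cells (permutation p = 0.35, 0.37, 0.47 and 0.083, adjusted p = 0.47, 0.47, 0.47 and 0.33, n = 16). The corresponding rho was 0.13, 0.14, -0.20 and -0.54 (permutation p = 0.66, 0.62, 0.48 and 0.043, adjusted p = 0.66, 0.66, 0.66 and 0.17). With the 2 most distant sheep left out, r was 0.27, 0.08, -0.44 and -0.21. The value for spermatocytes was 0.11 without high diet replicate 8 and 0.17 without low diet replicate 7. That for round spermatids was 0.03 without high diet replicate 8. That for Sertoli cells was -0.38 without low diet replicate 4 and between -0.12 and -0.08 without high diet replicates 5, 7 or 8. In well-fed sheep alone r was 0.51, 0.82, -0.72 and -0.86 for the lists in the same order (exact permutation p = 0.20, 0.014, 0.046 and 0.0067, not adjusted, n = 8). The 2 most distant sheep of a list were chosen over both diets, and for round spermatids and peritubular myoid cells they were not both well-fed. With them left out, r in the remaining well-fed sheep was 0.68 for round spermatids (exact permutation p = 0.099). It was -0.80 for peritubular myoid cells (exact permutation p = 0.032). In underfed sheep r was 0.08, -0.35, 0.27 and -0.05 (exact permutation p = 0.85, 0.39, 0.51 and 0.91, n = 8). Whether the diets differed in these relations was not tested.

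The genes whose pattern was most like that of SMPDL3A were ranked by Pearson's r over the 16 libraries with diet means removed, among the 1762 other genes with a symbol. This is a description of likeness only. The highest were CYP39A1, an oxysterol hydroxylase, with r = 0.64, ZWILCH, a kinetochore protein, with 0.63, UEVLD with 0.59, FAM198B with 0.58, HSF5, a heat shock factor of male germ cells, with 0.58, and SEC22A, TMEM5 and ZNF566 with 0.56 each. Of these 8 genes, 7 had a lower mean level in underfed sheep, as SMPDL3A did. FAM198B was the exception, with means of 7.31 CPM in the high diet and 14.4 CPM in the low diet. For all 8, r was larger in well-fed than in underfed sheep, as for CYP39A1, with 0.94 in the high diet and 0.10 in the low diet, and SEC22A, with 0.92 and -0.19.

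The lowest correlations were those of C1orf115 (-0.69), NEAT1_1, an identifier of the long non-coding RNA NEAT1 (-0.68), RHPN2 (-0.64) and DES, the muscle intermediate filament desmin (-0.62). Each of these 4 genes had a higher mean level in underfed sheep and a negative r within each diet, for C1orf115 -0.91 in the high diet and -0.43 in the low diet. Over all 11147 other genes the median r was -0.01, and r was above 0.5 in 173 genes and below -0.5 in 151, with extremes of 0.81 and -0.74.

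Of the 5 genes on each side of SMPDL3A in the RefSeq annotation of a later sheep assembly (ARS-UI_Ramb_v3.0), only HSF2, a heat shock factor expressed in testis, had an identifier here. Its difference was -0.62 on the log2 scale (SE 0.25, limma with Benjamini-Hochberg adjustment, adjusted p = 0.11), and it was not called. The other neighbours, among them SERINC1, PKIB and GJA1, were not analysed here.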

How the data were processed

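RNA of the right testis from each of 16 sheep was sequenced as paired-end reads by the authors, who aligned them to Oar_v3.1 with TopHat2 (version 2.0.10) and used htseq-count to assign them to Ensembl genes. The CPM values that the authors deposited were all whole multiples of 1 read (100% of values, tolerance 0.01 reads), and reads were recovered from them. Reads in opposite orientation and overlapping genes were not examined.

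Diet and replicate number came from the sample labels. For the fits, CPM was divided by TMM factors (edgeR 4.0.16), 1 CPM was added, and log2 values of genes that 8 or more libraries held at over 5 CPM were compared between diets with limma (version 3.58.1, trend on) and Benjamini-Hochberg adjustment over all 11148 genes. Fold changes on this scale understate the change of low genes. A gene was called at an adjusted p under 0.1 and a ratio of mean CPM above 1.5. The p-values measure the spread between single sheep.

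Symbols and trait values came from the supplementary tables of the study, of which the gene table is incomplete. SMPDL3A and the gene lists were chosen with earlier results of these data known. Up to 6 called genes per list with the smallest p, the 8 most and 4 least similar genes and the neighbours were named. Correlations were tested with 100000 permutations within diets, and exactly within 1 diet over 40320 pairings (scipy 1.17.1, numpy 2.4.6). Poisson intervals (95%) cover counting error only. The fit was tested on simulated data. Alternatives covered scaling, pseudocount, filter, test (edgeR and DESeq2 1.42.0 on recovered reads), replicate block, testis weight, thinning, call rule and leaving out each sheep. The ratio of means on TMM-scaled CPM was added after the data were seen.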

Additional observations from a re-analysis of the deposited data

Results flagged for a closer look

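In 72 groups of 8 sheep, formed by 36 genes named or listed here and 2 diets, 6 held a sheep at the edge of its diet whose gap to the nearest other sheep exceeded Dixon's 95% critical value as a share of the range. Chance alone gives about 1 such group in 20. SMPDL3A itself held none in either diet. SMPDL3B in high diet replicate 8 was 0.713 CPM, against 2.35 to 5.16 CPM in the other well-fed sheep. The other 5 groups all had low diet replicate 1 at their edge. This sheep had 240.7 CPM of SAMD8 (others 106.3 to 154.3), 226.6 CPM of CERS3 (others 94.5 to 137.2) and 52.7 CPM of SEC22A (others 31.5 to 40.3). It had 14.6 CPM of CERS2 (others 31.8 to 56.7) and 2.63 CPM of CTSD (others 7.08 to 10.6). In SMPDL3A the same sheep had 3.25 CPM, within the range of the other underfed sheep.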

How the results depend on the processing

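SMPDL3A was lower in underfed sheep under every alternative tried. Its log2 difference of -1.14 became -0.70 with a pseudocount of 5 CPM, which compresses the scale of low genes by construction, and -0.80 with testis weight as a covariate. All others lay between -1.36 (edgeR and DESeq2 on recovered reads) and -0.998 (library totals), and leaving out each sheep gave -1.20 to -1.07. Of the 22 pathway genes, 21 were called, and this count was 0 with testis weight as a covariate, 15 with the replicate block, 14 at an adjusted p under 0.05, 17 without the filter, 20 with edgeR's quasi-likelihood test and 21 or 22 in the other settings with all sheep. Leaving out each sheep gave 11 to 22, with 11 without low diet replicates 4 or 6 and 13 without high diet replicates 5 or 6. By list, these ranges were 4 to 11 for sphingolipid enzymes, 1 to 2 for nucleotide enzymes, 3 to 6 for LXR genes and 2 to 4 for lysosomal proteins, and the replicate block called 3 LXR genes. None of the listed genes changed sign. Over all genes, 1808 were called in the fit reported, 1673 with edgeR's quasi-likelihood test, and 674 to 2684 when each sheep was left out.

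Same-numbered sheep deviated together (correlation over 0.1) in only 2 of 8 pairs, which gave no sign that the numbers pair the samples. The correlations ran from -0.63 to 0.70, and values so wide could hide a shared factor, so pairing was not excluded. What the numbers mean is not given in the labels. With the replicate block, 1067 genes were called, the difference of SMPDL3A stayed at -1.14, and r with markers turned to -0.16 for spermatocytes, -0.066 for round spermatids and 0.19 for Sertoli cells. It also moved r with tubule diameter to 0.59, with scrotal circumference to -0.71 and with testis weight to 0.42 (exact permutation p = 0.30). With library totals, r was 0.51 for testis weight (permutation p = 0.068) and 0.49 for epithelium volume (permutation p = 0.071). In that setting r was -0.27 for peritubular myoid cells and -0.064 for round spermatids. The relation with sperm number turned to 0.17 as rho and 0.40 without the 2 most distant sheep, and that with apoptotic germ cells to 0.18 and 0.36. Leaving out each sheep gave r of -0.31 to 0.38 and -0.45 to 0.14 for these traits, 0.55 to 0.69 for testis weight, 0.50 to 0.68 for epithelium volume, 0.18 to 0.40 for tubule diameter and -0.60 to -0.18 for scrotal circumference. For markers it gave 0.11 to 0.35 (spermatocytes), 0.03 to 0.36 (round spermatids), -0.38 to -0.08 (Sertoli cells) and -0.62 to -0.34 (peritubular myoid cells). The cause of these changes was not tested. With 22 to 55 reads on SMPDL3A per underfed sheep, differences among them close to counting error were not detectable.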
